A study of Mus musculus with 12 samples.

Results

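The C/EBP family in this series is the set of 26 regions of open chromatin, of 84243 in the master peak-list, that carry the Gene Name of a family member. The members were chosen by name: Cebpa, Cebpb, Cebpd, Cebpe, Cebpg and Cebpz. Cebpa had 7 peaks, Cebpe 6, Cebpg 5, Cebpb 4 and Cebpd 4, and Cebpz had 0. Each of the first 5 genes had exactly 1 promoter peak, defined as a peak centre within 500 bp of a transcription start site (TSS). The family thus had 5 promoter peaks and 21 distal peaks. A promoter peak was found for 64.5% of all genes named in the list. The peak that lies 37 kb downstream of Cebpa was present in the list but carried the name of another gene, and it is described with Cebpa.

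Accessible chromatin had been mapped by ATAC-seq, which reads out where a transposase can insert adapters into DNA. Wild-type C57BL/6 mice of 8 to 12 weeks gave 12 samples with 2 replicates per group: hematopoietic stem cells (HSC), megakaryocyte progenitors (MkP), erythrocyte progenitors (EP), granulocyte/macrophages (GM), B cells and T cells, the latter labelled as thymus and the rest as bone marrow. No sample carried a transgene or a treatment according to the labels, and whether a replicate was 1 animal or a pool was not stated. The list was made from all 6 groups together, has no column of values per sample and has a score of 0 in every peak, so the cell type in which a peak was open, the depth behind it, its error and the identity of the sorted cells were not analysed here, and all values below are descriptions without a test.

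C/EBP proteins (CCAAT/enhancer binding proteins) are basic leucine zipper factors that bind DNA as dimers, with themselves or with one another, at sites that resemble TTGCNNAA. In blood they are known as the drivers of granulocyte and macrophage development. Cebpa is needed to form granulocyte and monocyte progenitors, Cebpb for granulocyte production under stress and for macrophage function, Cebpd is induced in inflammation, and Cebpe drives the last steps of granulocyte maturation and the genes of secondary granules. Cebpg has the leucine zipper but no activation domain of its own and acts as a partner of other factors. Cebpz shares the name only: it is a nucleolar protein of ribosome synthesis and has no leucine zipper. An enhancer about 37 kb downstream of mouse Cebpa is known to drive its expression in myeloid progenitors, and an element about 6 kb downstream of Cebpe is known from neutrophil precursors.

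A few sequences carry most of what follows, 3 distal elements and 3 promoters, all of GRCm38, the assembly also named mm10. Capitals mark every match to 1 of 16 consensus strings searched on both strands: C/EBP TTGCNNAA and its palindrome TTGCGCAA, RUNX TGTGGT, ETS GGAAGT, PU.1 GAGGAAGT (which contains the ETS string), AGATAA for GATA factors, NF-Y CCAAT, AP-1 TGANTCA, the cAMP response element TGACGTCA, STAT TTCNNNGAA, MYB AACGG, the GC box GGGCGG, the E-boxes CAGCTG and CACGTG, the CTCF core AGGNGGCAG and TATAAA. A match is a run of letters and not a measured binding site. The elements are the central 300 bases of the +37 kb peak of Cebpa (chr7:35156489-35156788), shown for its RUNX and ETS strings, the central 300 bases of the Cebpe peak at +6.2 kb (chr14:54705842-54706141), shown for its 3 C/EBP strings, and the central 200 bases of the Cebpd peak at +2.8 kb (chr16:15890015-15890214), shown for its 4 ETS strings. They are written on the plus strand.
Cebpa +37 kb: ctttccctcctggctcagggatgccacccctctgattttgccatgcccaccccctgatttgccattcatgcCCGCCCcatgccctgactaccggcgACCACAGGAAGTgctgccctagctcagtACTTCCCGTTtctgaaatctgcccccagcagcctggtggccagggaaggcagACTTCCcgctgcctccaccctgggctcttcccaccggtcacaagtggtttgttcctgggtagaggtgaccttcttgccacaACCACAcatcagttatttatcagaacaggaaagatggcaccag
Cebpe +6.2 kb: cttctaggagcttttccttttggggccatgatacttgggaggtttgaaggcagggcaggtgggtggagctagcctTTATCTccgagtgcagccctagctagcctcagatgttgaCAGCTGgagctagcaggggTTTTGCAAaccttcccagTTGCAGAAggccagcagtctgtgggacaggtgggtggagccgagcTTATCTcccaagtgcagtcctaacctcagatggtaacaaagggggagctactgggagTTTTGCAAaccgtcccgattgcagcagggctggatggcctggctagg
Cebpd +2.8 kb: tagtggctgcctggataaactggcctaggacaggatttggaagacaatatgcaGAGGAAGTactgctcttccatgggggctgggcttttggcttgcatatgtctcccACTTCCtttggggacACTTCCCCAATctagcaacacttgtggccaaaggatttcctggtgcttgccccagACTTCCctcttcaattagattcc

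The promoters are the 250 bases before the TSS in the direction of the gene, from RefSeq, for the 3 members in the promoter table: Cebpa (chr7:35119043-35119292, plus strand), Cebpb (chr2:167688665-167688914, plus strand) and Cebpg (chr7:35056567-35056816, minus strand). They are shown because their strings differ.
Cebpa promoter: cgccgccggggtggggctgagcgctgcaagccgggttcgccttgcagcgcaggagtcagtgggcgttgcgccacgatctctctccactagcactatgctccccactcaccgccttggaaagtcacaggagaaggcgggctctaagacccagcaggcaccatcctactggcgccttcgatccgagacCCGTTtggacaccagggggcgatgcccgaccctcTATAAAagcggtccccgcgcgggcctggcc
Cebpb promoter: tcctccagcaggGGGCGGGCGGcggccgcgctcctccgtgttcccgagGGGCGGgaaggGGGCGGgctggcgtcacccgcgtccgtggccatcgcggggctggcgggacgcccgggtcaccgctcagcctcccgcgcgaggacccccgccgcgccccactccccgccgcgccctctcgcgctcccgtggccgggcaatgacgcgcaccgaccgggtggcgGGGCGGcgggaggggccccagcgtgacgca
Cebpg promoter: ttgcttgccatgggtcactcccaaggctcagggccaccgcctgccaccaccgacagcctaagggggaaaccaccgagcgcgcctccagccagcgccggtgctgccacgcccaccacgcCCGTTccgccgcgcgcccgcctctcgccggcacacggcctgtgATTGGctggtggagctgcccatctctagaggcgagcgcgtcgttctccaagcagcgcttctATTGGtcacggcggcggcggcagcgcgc

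Cebpa (gene 12606, chr7:35119293-35121928, plus strand) had its promoter peak at chr7:35118926-35119424, centred at -118 bp and covering the TSS. This peak had 67.7% G and C and a CpG observed over expected ratio of 0.84. The printed promoter held a TATAAA string whose first base is at -30 and 1 MYB string at -64, and it held no C/EBP string. TATAAA occurred in 12.4% of the 250-base promoters of 32851 RefSeq genes, the MYB string in 14.5% and the C/EBP string in 9.56%.

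The 6 distal peaks of Cebpa were centred at -20306, -8400, 5673, 8016, 20767 and 31763 bp from the TSS, all intergenic in the annotation. Thus 2 lay upstream and 4 downstream. RUNX strings were in 4 of them, at -20306, -8400, 5673 and 8016 bp. The peak at 31763 bp (chr7:35150807-35151305) held 1 C/EBP string and 1 PU.1 string, at -236 and 6 bp from the peak centre. The peak at 8016 bp (chr7:35127060-35127558) held 1 C/EBP string and 1 RUNX string, at -231 and 156 bp from its centre. PU.1, the product of Spi1, is the ETS factor of myeloid and B cells. The peak at -8400 bp lay on a SINE repeat of the B1 type, which is 1 of the 2 member peaks on a transposon.

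The +37 kb region of Cebpa, taken as 36 to 38 kb downstream of its TSS, held 1 peak, at chr7:35156390-35156888. Its centre was 37346 bp downstream of the Cebpa TSS and -29746 bp from the TSS of Slc7a10, an amino acid transporter gene, and the list therefore names it for Slc7a10. It was intergenic in the list, had 57.9% G and C, and overlapped Gm35889, a RefSeq long non-coding RNA gene with 2 annotated transcripts, of which 1 starts under the peak. The nearest other peak was the Cebpa peak at 31763 bp, 5583 bp away. It held 4 RUNX, 3 ETS, 2 GC box, 1 MYB and 1 CAGCTG string and no C/EBP string. Of all 71072 distal peaks, 0.432% had at least 4 RUNX strings and 2.12% at least 3 ETS strings, and 10 peaks (0.0141%) had both. These counts were made after the strings of this peak had been seen.

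The arrangement inside the +37 kb peak was compact. The ETS strings were centred at -45, -23 and 29 bp from the peak centre, and the nearest RUNX string at -51 bp, directly against the first ETS string. In the printed sequence they form the unbroken run ACCACAGGAAGT. This run was read from the peak itself. On either strand it was found in 80 of the 71072 distal peaks (0.113%) and in 0 of the 26 peaks that carry a member's name. The MYB string shared 1 base with the next ETS string, in the run ACTTCCCGTT. The other RUNX strings were centred at 110, 198 and 236 bp.

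A further 2 peaks named for Slc7a10 followed at 50252 and 52858 bp from the Cebpa TSS. Slc7a10 starts 67.1 kb downstream of Cebpa, so the list divides this interval between both genes by distance, with 4 peaks to Cebpa and 3 to Slc7a10. Under the basal plus extension rule, which links a peak to each gene whose domain it falls in and lets domains reach to the next gene, Cebpa had 12 peaks: the 7 of its own name, the 3 of Slc7a10 and 2 of Cebpg. RUNX strings were in 7 of the 11 distal ones (63.6%), beside 42.5% of all distal peaks. This set includes the +37 kb peak. With promoter peaks counted, the rule gave RUNX strings in 7 of 12 peaks for Cebpa, 7 of 13 for Cebpg and 12 of 40 for Cebpb. It gave 3 of 7 for Cebpd, 1 of 7 for Cebpe and 0 of 1 for Cebpz, beside 38.9% of all peaks. These shares were not tested.

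**Figure D1:**
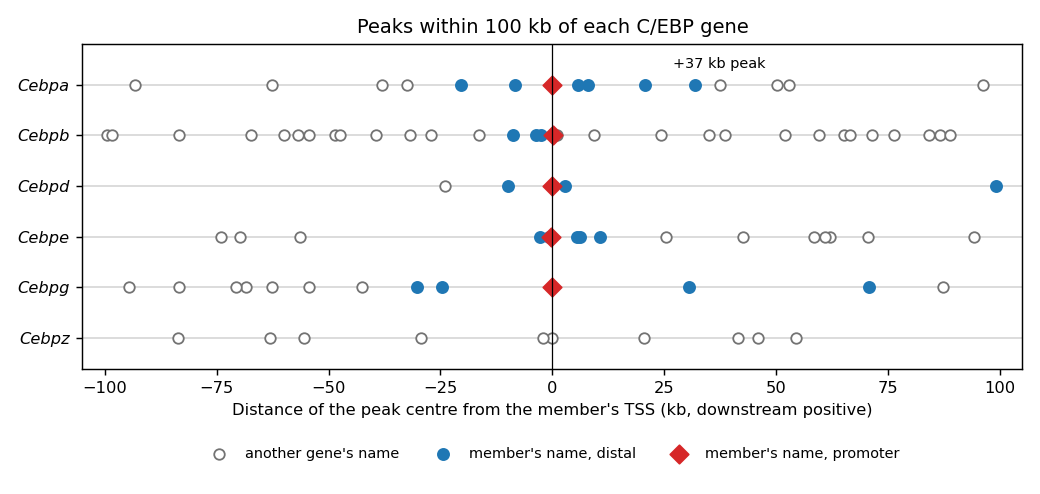
Peaks within 100 kb of the TSS of each C/EBP gene, with the distance of the peak centre from that TSS in kb on the x axis (downstream positive) and 1 lane per gene. Red diamonds are promoter peaks and blue circles distal peaks with the gene's own name, and open circles are peaks named for another gene. The +37 kb peak of Cebpa is open, Cebpb has 27 open circles among its 31 peaks, and Cebpz has no filled mark.

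Cebpg (gene 12611, chr7:35046422-35056566, minus strand) stands head to head with Cebpa, with 62.7 kb between the TSSs. Its promoter peak (chr7:35056373-35056871) was centred at -56 bp, covered the TSS and had 70.9% G and C. The printed promoter held 2 NF-Y strings on the opposite strand, at -89 and -28, and 1 MYB string at -132. NF-Y is the general factor that binds CCAAT boxes, and its string was in 33.8% of RefSeq promoters. The distal peaks of Cebpg lay at -24770, -30177, 30501 and 70745 bp. The last 2 are beyond the end of the gene and within introns 11 and 9 of Pepd, the peptidase gene that follows. The peak at -24770 bp (chr7:35081087-35081585) held C/EBP, RUNX, ETS and PU.1 strings and 2 NF-Y strings. The peak at 70745 bp (chr7:34985572-34986070) held 2 RUNX, 2 ETS, 2 CAGCTG, 1 PU.1, 1 GATA and 1 CTCF core string.

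Between the start sites of Cebpg and Cebpa there were 4 distal peaks, 2 named for each gene, and the basal plus extension rule links all 4 to both. The list has no value that assigns them to either. By that rule Cebpg had 13 peaks, of which 6 carried the name of Pepd, 5 its own and 2 that of Cebpa.

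Cebpb (gene 12608, chr2:167688915-167690432, plus strand) had its promoter peak at chr2:167688689-167689187, centred at 23 bp, with 79.0% G and C, the highest of the 26 peaks, and a CpG ratio of 1.06. The printed promoter held 5 GC box strings, first bases at -238, -234, -202, -191 and -30, of which the first pair overlap. The GC box, the string of the Sp1 family of general factors, was in 32.7% of RefSeq promoters. The distal peaks with its name were all upstream, at -8746, -3582 and -2449 bp. The last of these (chr2:167686217-167686715) held 1 C/EBP, 1 NF-Y and 2 CAGCTG strings.

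Downstream of its promoter Cebpb had no peak of its own name, and the next 17 peaks carried the name of the adjacent non-coding RNA gene A530013C23Rik. The first of them, at chr2:167689593-167690091, was centred 927 bp downstream of the Cebpb TSS, inside the Cebpb gene itself, with 74.1% G and C, and the list places it in the promoter class of the RNA gene, at -917 bp from that TSS. The others reached from 9197 to 116096 bp. Measured to 1 RefSeq Select TSS per protein-coding gene, all 17 were nearest to Cebpb, which then had 21 peaks in place of 4, a 5.25-fold change. Among the 6584 protein-coding genes with at least 4 peaks by name, 19 (0.289%) had at least 5 times as many by nearest Select TSS. The names of the added peaks were not considered. The limit of 4 is the count of Cebpb itself, and that of 5 lies just under its ratio. The share therefore describes Cebpb and is no test. Only 4 of the 21 peaks nearest to Cebpb were counted to the family by the naming rule.

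Farther on, 18 peaks named for Ptpn1, a phosphatase gene 243 kb away, fell in the same interval, and basal plus extension linked 40 peaks to Cebpb. That is 15.0 peaks per 100 kb of domain, where the median gene had 4.44, and 93% of genes had a lower density. Only the promoter peak and the peak centred 927 bp downstream were linked to Cebpb alone. The peaks farther downstream were linked to Ptpn1 as well, and those upstream to Tmem189, so the density is not a trait of Cebpb alone. RUNX strings were in 12 of the 40 peaks, beside 38.9% of all peaks. In the peak at 116096 bp the string occurred 4 times, as often as in the +37 kb peak of Cebpa. The peak at 236246 bp (chr2:167924912-167925410) held 3 C/EBP and 3 ETS strings. The C/EBP string was in 8 of the 39 distal peaks of this set (20.5%), against 20.7% of all distal peaks.

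Cebpd (gene 12609, chr16:15887286-15889545, plus strand) had its promoter peak at chr16:15887058-15887556, centred at 21 bp, with 68.5% G and C. Its distal peaks lay at -9971, 2829 and 99104 bp. The peak at -9971 bp was on an internal part of an ERV1 retrovirus. The peak at 2829 bp (chr16:15889866-15890364), just past the end of the gene, in the class of transcription termination sites in the list and overlapping the convergent gene Spidr, held 4 ETS strings, 1 of them within a PU.1 string, all inside the 200 bases printed above. At least 4 ETS strings, a limit taken from this peak, occurred in 0.328% of all distal peaks. The peak at 99104 bp (chr16:15986141-15986639) lay in intron 7 of Spidr, which is a DNA repair gene, had the lowest G and C content of the 26 at 34.3%, and held 3 ETS strings with 1 PU.1 and 1 RUNX string.

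The surroundings of Cebpd were otherwise sparse. No peak lay between 2829 and 99104 bp, a step of 96.3 kb. Its domain held 2.5 peaks per 100 kb, and 33.4% of genes had a lower density. Within 50 kb of the TSS it had 4 peaks, where Cebpb had 15, Cebpa 10, Cebpe 8, Cebpz 6 and Cebpg 5, and the median gene had 6.

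Cebpe (gene 110794, chr14:54710363-54712174, minus strand) was the member whose promoter peak differed most from the others. The peak (chr14:54712247-54712745) was centred at -322 bp, and its near edge was 73 bp upstream of the TSS, so that no peak covered the start site. For comparison, 52.7% of 20962 RefSeq Select start sites lay under a peak. It had 53.1% G and C and a CpG ratio of 0.24, where the other 4 promoter peaks had at least 67.7% and 0.80. A neighbour at -859 bp (chr14:54712784-54713282) stood 537 bp away, in the promoter class of HOMER but outside the 500 bp used here, and held 2 ETS strings, a PU.1 string and a CTCF core string. Another Cebpe peak was centred at -2720 bp, with 2 CAGCTG strings and 1 GATA and 1 AP-1 string.

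Downstream of Cebpe the interval from 5 to 7 kb held 2 peaks, at 5398 bp (chr14:54706527-54707025) and 6182 bp (chr14:54705743-54706241), 784 bp apart. The one at 6182 bp held 3 C/EBP and 2 GATA strings. At least 3 C/EBP strings occurred in 0.29% of all distal peaks, and 8 peaks (0.0113%) had at least 3 C/EBP and 2 GATA strings. These limits are the counts of this peak itself, so the shares describe it and are no test. The outer C/EBP strings were 120 bp apart and the GATA strings 121 bp apart, each GATA string lying to the same side of a C/EBP string, and the printed sequence around them reads alike in both copies. The longest word that recurs at least 20 bp further on had 14 bases in this peak. At least 14 were reached by 9.77% of all distal peaks, and longer words recurred in 5 other distal peaks of the members, with 57 and 15 bases in the Cebpb peaks at -2449 and -8746 bp, 35 and 22 in the Cebpa peaks at 5673 and 31763 bp, and 17 in the Cebpg peak at 70745 bp. The peak at 5398 bp held 1 RUNX string and none of the others. The last Cebpe peak, at 10667 bp, was nearest by Select TSS to Gm29776, which starts 13.3 kb from Cebpe.

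Cebpz (gene 12607, chr17:78919003-78937070, minus strand) had 0 peaks by name, but its start site was open. The peak at chr17:78936876-78937374, with 61.3% G and C, was centred at -55 bp from the Cebpz TSS and covered it. The TSS of Ndufaf7, a mitochondrial complex I assembly gene on the other strand, is 65 bp away, and at -10 bp it took the peak's name. This shared promoter held 2 ETS, 2 MYB and 1 GC box string and no NF-Y or C/EBP string. The single peak named for Cebpzos (chr17:78916396-78916894) lay 20425 bp downstream of the Cebpz TSS, past the 3' end of the gene, and is not a promoter peak of Cebpz. With the shared promoter counted, all 6 members had a peak within 500 bp of their TSS. The share of all genes under this rule was not computed. By name, 64.5% of the genes in the list had a promoter peak, and 52.7% of RefSeq Select start sites lay under a peak.

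**Figure D2:**
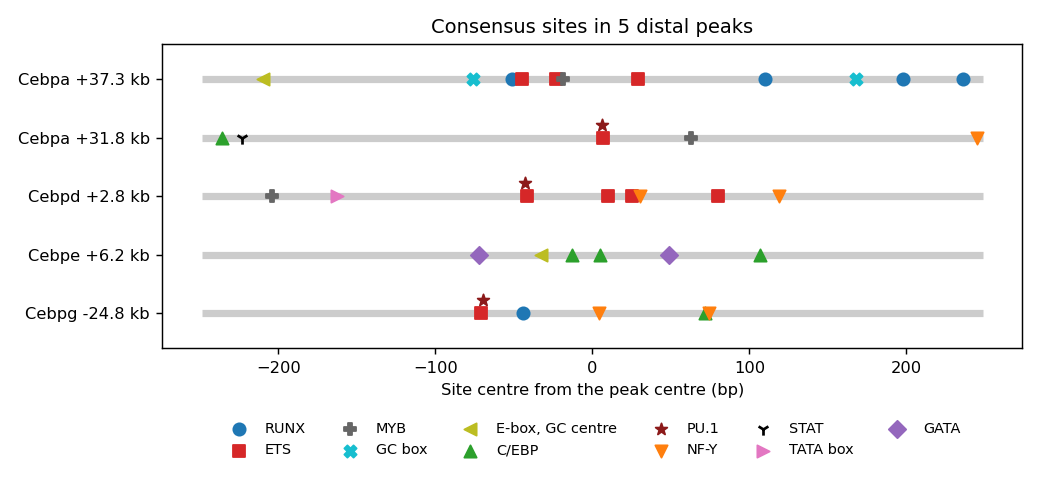
Positions of consensus strings in 5 distal peaks of the C/EBP loci, each 499 bp wide, with the distance of a site's centre from the peak centre in bp on the x axis and 1 lane per peak. The +37 kb peak of Cebpa has 3 ETS marks near its centre, 4 RUNX marks and no C/EBP mark, 3 C/EBP and 2 GATA marks fill the Cebpe lane, and 4 ETS marks the Cebpd lane. Stars are PU.1 strings, raised because each contains an ETS string.

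Over all members, the C/EBP string was in 5 of the 26 peaks (19.2%), close to the 19.3% of all peaks in the list. The 5 were the Cebpa peaks at 8016 and 31763 bp, the Cebpb peak at -2449 bp, the Cebpe peak at 6182 bp and the Cebpg peak at -24770 bp. None of the 5 promoter peaks held it, and 11.6% of all promoter peaks did. The palindrome was in 0 of the 26 peaks and in 0.157% of the list.

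The share of distal peaks with a PU.1 string was 28.6% (6 of 21) beside 10.2% of all distal peaks. The 6 were spread over 4 genes, with 1 for Cebpa, 2 for Cebpd, 1 for Cebpe and 2 for Cebpg. The shorter ETS string was in 42.9% (9 of 21) beside 43.9%. The CTCF core was in 4 of 21 (19.0%) beside 8.11%, RUNX in 10 of 21 (47.6%) beside 42.5%, and GATA in 4 of 21 (19.0%) beside 26.9%. With 21 peaks, 1 peak is 4.76% of the set, and no test was made of these shares. Among promoter peaks the GC box was in 5 of 5, where 75.7% of all promoter peaks had it, and the RUNX and GATA strings were in none, where 19.6% and 8.66% had them. The PU.1 counts changed with the rule. By nearest Select TSS Cebpb had the PU.1 string in 3 of 21 peaks in place of 0 of 4. By basal plus extension, promoter peaks included, the string was in 2 of 12 peaks for Cebpa, 6 of 40 for Cebpb and 4 of 7 for Cebpd. It was in 2 of 7 for Cebpe, 2 of 13 for Cebpg and 0 of 1 for Cebpz, beside 9.39% of all peaks.

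**Figure D3:**
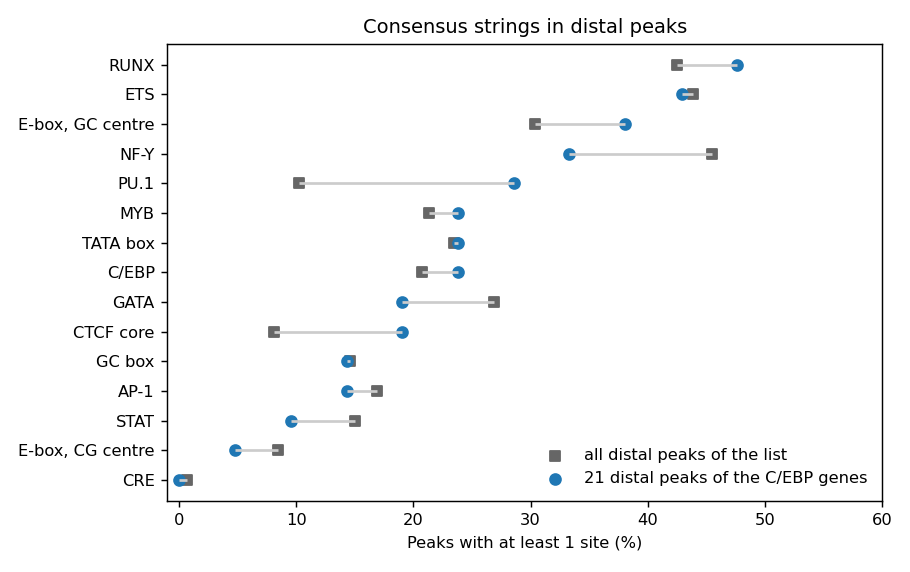
Percent of distal peaks with at least 1 match to each consensus string (x axis) for 15 strings (y axis), in the 21 distal peaks of the C/EBP genes (blue circles) and in all 71072 distal peaks (grey squares). The widest gap is that of PU.1, at 28.6% and 10.2%, and C/EBP stands at 23.8% and 20.7%.

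The members' distal peaks were intergenic in 16 of 21 cases (76.2%), where 44.6% of all distal peaks were, and 3 (14.3%) were intronic, where 48.0% were. The 3 lay in introns of other genes, Pepd and Spidr. The gene bodies of the members are short, from 1518 bp for Cebpb to 18068 bp for Cebpz. The distal peaks had a median G and C content of 51.7% (34.3 to 57.5%), beside 47.7% over all distal peaks, and 2 of 21 (9.52%) were on a repeat, beside 17.9%. Their median distance from the TSS was 8746 bp, against 22261 bp over all distal peaks. Among peaks with a member's name, promoter and distal peaks did not overlap in G and C content except through Cebpe. Its promoter peak at 53.1% lay inside the distal range. This separation depended on the naming rule. The peak 927 bp downstream of the Cebpb TSS, distal by the 500 bp limit but named for A530013C23Rik, had 74.1%. Over the whole list the ranges overlapped, with promoter peaks from 30.5 to 84.6% and distal peaks up to 83.6%.

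By the number of peaks the 5 members with a peak were near the middle and upper part of the list, and Cebpz had 0. The 19041 genes named in it had a median of 3 peaks (quartiles 1 and 5, highest 89). Fewer peaks than Cebpa were carried by 80.4% of these genes, fewer than Cebpe by 75.5%, fewer than Cebpg by 68.2%, and fewer than Cebpb and Cebpd by 58.8%. The combination of 1 promoter peak and 6 distal peaks, that of Cebpa, was shared by 470 other genes. The order changed with the rule. By nearest Select TSS, 97.9% of genes had fewer peaks than Cebpb and 81.4% fewer than Cebpa, so that Cebpb came first. These shares are over RefSeq Select protein-coding genes, those without a peak included, whereas the shares by name leave such genes out.

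**Figure D4:**
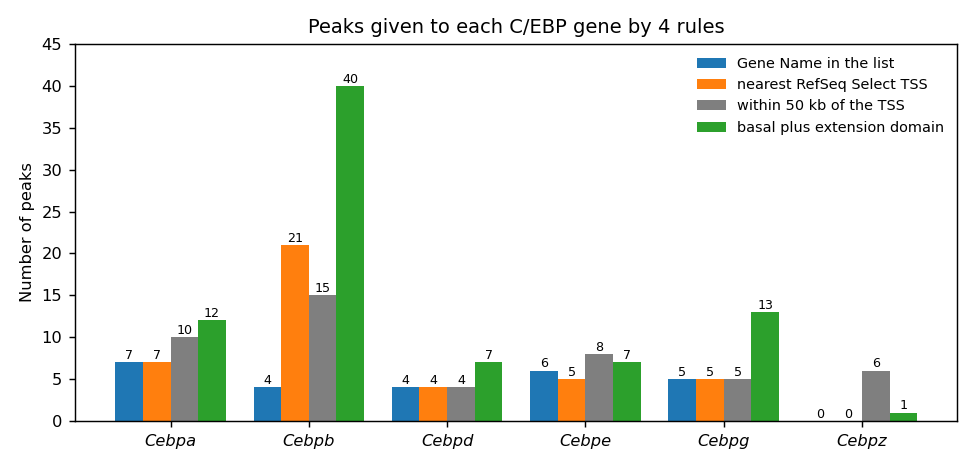
Number of peaks (y axis) given to each C/EBP gene (x axis) by 4 rules, shown as bars in colors given in the key: the Gene Name of the list, the nearest RefSeq Select TSS, a window of 50 kb to each side of the TSS, and the basal plus extension domain. Cebpb rises from 4 to 21, 15 and 40, whereas Cebpd stays at 4, 4, 4 and 7.

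**Figure D5:**
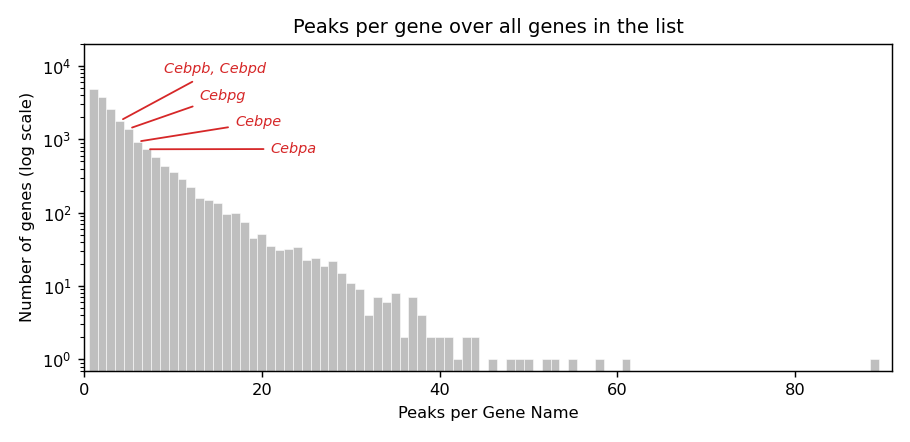
Distribution of the number of peaks per Gene Name (x axis) over the 19041 genes of the list, with the number of genes on a log scale (y axis). Lines mark the 5 C/EBP genes that have a peak, at 4, 5, 6 and 7 peaks, in the tall left part of a distribution that runs to 89.

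Other families of blood transcription factors had more peaks per gene by name. The median was 4.5 over the 6 C/EBP genes, 9.5 over Gata1, Gata2, Gata3 and the cofactor Zfpm1, 21 over Runx1, Runx2, Runx3 and Cbfb, and 27 over 7 ETS genes. Fli1, an ETS factor of stem cells and megakaryocytes, had 38 peaks and Runx1 had 35, over gene bodies of 119 and 225 kb. Runx3 had 23 over 25.4 kb. Within the C/EBP range of 0 to 7 were Spi1 with 5 peaks and a gene of 19.1 kb, Gata2 with 4 and 8.37 kb, Cbfb with 4 and 47.3 kb, Gata1 with 3 and 8.65 kb, and Spib with 3 and 6.08 kb. Among the longer genes, Etv6 had 34 peaks over 234 kb, Erg 29 over 171 kb and Ets1 27 over 122 kb. Runx2 had 19 over 133 kb and Elf1 10 over 101 kb. Longer genes of these families mostly had more peaks, with exceptions such as Runx3 and Cbfb. The part of length in the counts was not tested. The share of peaks with a C/EBP string was 20.4% for the GATA group, 23.5% for the RUNX group and 19.2% for the ETS group, the last equal to the C/EBP family at the precision given.

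A list of 8 genes known to act upstream of or against C/EBP factors (Runx1, Spi1, Myb, Gfi1, Trib1, Trib2, Ddit3 and Irf8) had a peak in 8 of 8 and a promoter peak in 8 of 8 cases. Of all genes named in the list, 64.5% had a promoter peak. The number of peaks ranged from 2 for Ddit3, the stress-induced C/EBP relative that blocks DNA binding of its partners, to 35 for Runx1, which binds the Cebpa locus. Trib2, which promotes the breakdown of C/EBPα protein, had 31. The C/EBP string was in 29 of their 137 peaks (21.2%).

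A list of 18 genes known as C/EBP targets in granulocytes and macrophages held, among others, granule proteins, growth factor receptors and S100 proteins. It had a peak in 17 and a promoter peak in 12, beside the 64.5% of all named genes with a promoter peak. That share is over genes with a peak in the list, non-coding ones included, whereas the 18 include a gene without one. Csf2ra, a chain of the GM-CSF receptor, had the most at 8, and Ctsg, the granule protease cathepsin G, had 0. The C/EBP string was in 22 of their 64 peaks (34.4%), beside 19.3% of all peaks. The share was higher in their promoter peaks, where 7 of 12 (58.3%) held the string, beside 11.6% of all promoter peaks, and 15 of 52 distal peaks (28.8%) did, beside 20.7%. The 7 promoters were those of Camp, Lcn2, Ltf, Mmp8, Mmp9, Ngp and S100a9. The promoter peaks of Csf1r, Csf3r, Il6ra, Lyz2 and S100a8 held no C/EBP string. The genes were listed because they are known targets, so these shares are no independent test of the string. Ltf, Lcn2, Camp, Ngp and Mmp8 encode proteins of the secondary and later granules of neutrophils. The promoter peaks of the C/EBP genes themselves held the string in 0 of 5 cases, where 11.6% of all promoter peaks did. This contrast between promoters of targets and of members was noted after the values were seen and was not tested.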

How the data were processed

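ATAC-seq had been performed on 12 samples of 6 sorted blood cell groups. The authors processed reads with the ENCODE pipeline on mm10 with multimapping reads left out, concatenated the optimal peak-list of each cell type, kept non-overlapping peaks with chromVAR and annotated them with HOMER 4.10.2. The result is 1 list pooled over all samples. It holds peak positions and distances to the TSS in bp, not normalized, and a peak score, which the authors deposited as 0 throughout and which was not used. Pooling removes replicate error, and leaving out multimapping reads can hide peaks in repeats.

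Peaks were taken by the Gene Name column. Promoter peaks had a centre within 500 bp of a TSS. The distance of all 26 member peaks was within 2 bp of that to the RefSeq Select TSS. Genes and sequence came from RefSeq of GRCm38.p6. In the basal plus extension rule each gene had a domain of 2 kb upstream and 1 kb downstream, extended by up to 1 Mb to the next domain. The 16 consensus strings were searched over the full width of each peak in both orientations, and the search found 3200 of 3200 sites planted in simulated sequences. Alternatives concerned the gene assignment, the promoter width, the +37 kb window, the C/EBP string, the gene set and the G and C threshold.

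Members, neighbours, comparison families and the lists of regulators and targets were named by a fixed rule, and all were chosen with earlier results of these data known. The A530013C23Rik, Gm29776 and Gm35889 genes were named after their values were seen. Analyses per cell type were not run. The software was Python 3.11.15, numpy 2.4.6, pandas 2.3.3 and matplotlib 3.10.9.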

Additional observations from a re-analysis of the deposited data

How the results depend on the processing

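No paired analysis was possible because the list holds no value per sample. The family total of 26 became 42 by nearest RefSeq Select TSS, 80 by basal plus extension (a peak linked to 2 members counts for each, and 76 different peaks were involved) and 48 within 50 kb of the TSS. A window of 100 kb, added after the data were seen, gave 90. By nearest Select TSS Cebpb moved from 4 to 21. Basal plus extension moved Cebpa from 7 to 12, Cebpb to 40, Cebpd from 4 to 7, Cebpg from 5 to 13 and Cebpz from 0 to 1. The 50 kb window moved Cebpb to 15 and Cebpz to 6, and the 100 kb window moved Cebpa to 15, Cebpb to 31, Cebpe from 6 to 16, Cebpg to 13 and Cebpz to 10. Counting Cebpzos with Cebpz gave Cebpz 1. The 5 promoter peaks became 3 with a limit of 100 bp from the TSS. Peaks with a C/EBP string numbered 5, and 0 with the palindrome, 2 within the central 200 bp and 13 among the peaks of the basal plus extension rule, an alternative added later. Peaks on a CpG island or over 60% G and C numbered 4, and 10 at 55%. The other 24 of 47 recomputed values stayed within 1.5 times the reported one, among them the single peak of the +37 kb region in both alternatives and a median percentile of peak number of 72.2 in place of 63.5 when protein-coding genes without a peak were included. A stricter peak score could not be applied, since the score is 0 everywhere. Depth per peak is unknown, so an absent peak does not show closed chromatin.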

Other observations

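A name other than that of the nearest RefSeq Select gene was carried by 19.2% of all peaks. The peak of the members with the longest distance to its neighbour was the Cebpd peak at 99104 bp, whose nearest other peak lay 87143 bp away. Cebpb and Cebpd, with 4 peaks each by name, had domains of like size, 267 and 280 kb, holding 40 and 7 peaks by the basal plus extension rule.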
